A study of Mus musculus with 42 samples.

Results

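The response of wild-type synovial fibroblasts to hyaluronan (HA) was measured as 1 effect pooled over cultures with and without recombinant TSG-6. The members were chosen by their labels: 4 arrays with HA against 7 without, hence 11 of the 42 arrays of the series. All 11 cultures were wild-type and of the BALB/c strain. They were made from the joints of female mice that had become arthritic after injections of cartilage proteoglycan (100 ug of protein) with 2 mg of the adjuvant DDA. The cells had been grown in 10% serum for no more than 6 passages and then held overnight in 0.5% serum. After that, 5 were left untreated, 2 received HA (24 ug/ml), 2 received recombinant mouse TSG-6 (120 ug/ml) and 2 received both at these doses, for 12 h in low-serum medium. Other wild-type cultures of the series received LPS (200 ng/ml) or TNFa (5 ng/ml). Cultures labelled as TSG-6 knockout, called knockout-labelled below, had the same set of treatments. These other arrays entered the fit through its shared estimate of the spread and are compared further on. Each culture was read on 1 Affymetrix array, and with so few arrays a group the precision is limited. The labels speak of biological replicates and do not tie any culture to an animal of its own. The p-values therefore measure only the spread between cultures, which was estimated over all 42 arrays and not over the 11 alone. The source and chain length of the HA are not given in the sources used here.

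HA is a long, unsulfated sugar polymer of the extracellular matrix that fibroblasts of the joint lining secrete into synovial fluid. Cells bind it through surface receptors such as Cd44, and its chains can be crosslinked by TSG-6, the secreted HA-binding protein encoded by Tnfaip6. Fragments of HA are known to start inflammatory gene expression in several cell types, where the transcription factor NF-kB switches on chemokines and growth factors for white blood cells. The deposited values are log2 expression values from which the median over the 42 arrays was already subtracted for each probe set (a group of probes for 1 transcript). A value of 1 therefore means a level 1 doubling above that median, and no absolute level can be read. For the same reason the markers of synovial fibroblasts cannot show whether the labelled cell type was present.

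HA raised a small group that includes genes for neutrophil chemokines and colony-stimulating factors. It lowered a smaller group that includes Tm6sf1 and, less stably, the endothelial tight junction gene Cldn5. Of 18194 genes tested, 18 passed an adjusted p of 0.05 (limma fit over all 42 arrays, with TSG-6 as a separate term), which is 0.0989% of the genes. There were 13 higher genes (0.0715%) and 5 lower genes (0.0275%), and 1124 genes had an unadjusted p under 0.05. The size of an effect is given as the log2 change ± SE. All 18 kept their direction in every alternative analysis that measured them, but the calls were less stable. Of the 18, 0 passed in limma on the 11 arrays alone (1361 genes at an unadjusted p under 0.05), 1 with quantile normalization (Cxcl1), and 1 with a block for the culture set and without the arrays of high 18S ribosomal RNA signal, both described further on. Of the 18 genes, 14 had their arrays with HA all on 1 side of those without HA, both among cultures without TSG-6 (2 against 5) and among cultures with it (2 against 2). Over all genes tested, 2.45% separated in that way. The 18 were called on these same arrays, so their separation is a description and gives no further support. Of the 5 lower genes, only Tm6sf1 also passed with cyclic loess normalization. Cldn5 passed neither there nor without the arrays of high 18S signal.

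**Figure D1:**
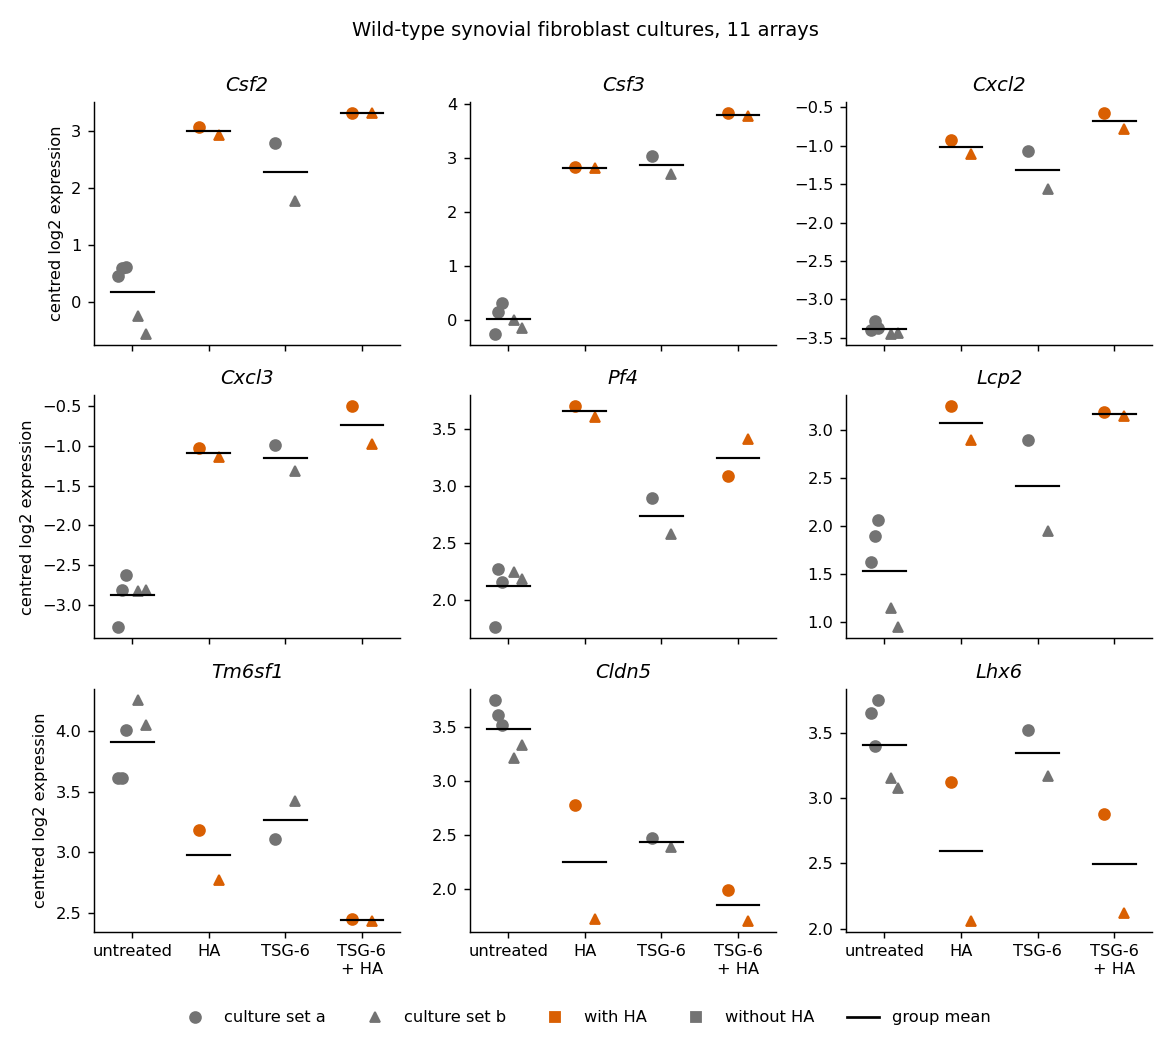
Centred log2 expression of 9 of the genes on the 11 wild-type arrays, by treatment. Orange points had HA, grey points did not, bars are group means, and circles and triangles mark the culture sets a and b, which were found from the data. Csf2, Csf3, Cxcl2 and Cxcl3 were lowest on all 5 untreated arrays, and Tm6sf1 was highest there.

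The colony-stimulating factors had the largest rises. Csf2 encodes GM-CSF, a growth factor for granulocytes and macrophages. In order of replicate number, its centred log2 values were 0.46, 0.59, 0.62, -0.24 and -0.56 on the untreated arrays, 3.07 and 2.93 with HA, 2.78 and 1.77 with TSG-6, and 3.31 and 3.31 with both. Every array with HA stood above every array without it, and both arrays with TSG-6 stood between. The pooled change of Csf2 was 2.09 ± 0.24 (4.25-fold, adjusted p = 2.45e-06). Csf3, the growth factor of neutrophils, read -0.26, 0.16, 0.31, -0.01 and -0.16 untreated, 2.83 and 2.81 with HA, 3.04 and 2.70 with TSG-6, and 3.83 and 3.77 with both. For Csf3 the arrays with HA or TSG-6 overlapped each other and lay clear of the untreated ones, and the combination was highest. Its pooled change was 2.04 ± 0.33 (4.10-fold, adjusted p = 0.00131). The gene lists used here and below were chosen with earlier results of these data known. Of 22 measured cytokines and growth factors Csf2 and Csf3 were the 2 that rose, and none fell. Over all genes tested 0.0715% rose. The median change of the list was 0.02, against 0.00 over all genes tested. The members with the next smallest p were Tnfrsf11b, the decoy receptor osteoprotegerin (-0.81 ± 0.32, adjusted p = 0.788), and Tnf (0.25 ± 0.12, adjusted p = 0.812).

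Several chemokines rose as well, 4 of the 21 measured on the list and Pf4. Cxcl1, Cxcl2, Cxcl3 and Pf4 lie close to one another in a chemokine cluster on mouse chromosome 5. The 150 bases before their start sites are shown because they belong to the chemokine genes that rose together, and because a sequence of the kind that NF-kB binds was found in 3 of them. The sequences are from RefSeq in build GRCm38.p6, whose reference strain is not BALB/c, and all are on the plus strand, Pf4 at chr5:90772285-90772434, Cxcl3 at chr5:90785951-90786100, Cxcl1 at chr5:90891095-90891244 and Cxcl2 at chr5:90903749-90903898. Capitals mark matches, on either strand, to a kB motif of GGG, any pair of bases, TT, any base and CC.
Cxcl1: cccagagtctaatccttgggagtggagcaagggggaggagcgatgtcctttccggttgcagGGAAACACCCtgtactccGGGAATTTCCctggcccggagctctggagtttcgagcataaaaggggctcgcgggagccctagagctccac
Cxcl2: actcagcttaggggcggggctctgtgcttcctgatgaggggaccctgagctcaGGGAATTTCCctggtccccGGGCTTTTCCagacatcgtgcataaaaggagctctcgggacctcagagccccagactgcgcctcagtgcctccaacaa
Cxcl3: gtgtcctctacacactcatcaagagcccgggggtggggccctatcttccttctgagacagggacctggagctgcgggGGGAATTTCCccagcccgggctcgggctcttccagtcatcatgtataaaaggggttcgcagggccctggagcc
Pf4: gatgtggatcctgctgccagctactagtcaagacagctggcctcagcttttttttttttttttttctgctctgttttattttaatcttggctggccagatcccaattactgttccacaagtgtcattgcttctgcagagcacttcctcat

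The matches began 89 and 71 bases before the start site of Cxcl1, 97 and 78 before that of Cxcl2 and 73 before that of Cxcl3. In the window from 250 bases before to 50 after the start, 13 of the 18 genes had a promoter entry, and 4 of these 13 held a kB match, the 3 Cxcl genes and Lhx6 in 1 of its promoters. Among all 27025 genes with an entry, 5.48% held a match (4.79% of 32851 promoters). The motif TGANTCA of the AP-1 factors was found in 1 of the 13 genes, Lhx6, and in 8.97% of all genes (7.81% of promoters). A match describes the letters in the window and is not evidence of binding.

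Cxcl2, a chemokine that draws neutrophils through the receptor Cxcr2, read -3.39, -3.27, -3.37, -3.45 and -3.44 untreated, -0.93 and -1.11 with HA, -1.07 and -1.57 with TSG-6, and -0.57 and -0.79 with both. The untreated arrays were tightly grouped, and all treated arrays lay well above them. The pooled change of Cxcl2 was 1.66 ± 0.25 (adjusted p = 0.000334). Cxcl3, its close relative, read -3.28, -2.81, -2.63, -2.83 and -2.81 untreated, -1.03 and -1.13 with HA, -0.99 and -1.31 with TSG-6, and -0.50 and -0.97 with both, a pooled change of 1.22 ± 0.20 (adjusted p = 0.0012). Here too the treated arrays lay clear of the untreated ones, and HA and TSG-6 overlapped. These 2 genes separate from the untreated arrays under every agent tested in wild-type cultures: a gap of 1 log2 unit or more between all 10 treated and all 5 untreated wild-type arrays was found in 5 probe sets, for Csf2, Cxcl2, Cxcl3 and the arginase Arg2 with 2 probe sets.

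Pf4, a chemokine of platelet granules that binds sulfated sugar chains, read 1.76, 2.27, 2.15, 2.24 and 2.18 untreated, 3.70 and 3.61 with HA, 2.90 and 2.58 with TSG-6, and 3.08 and 3.41 with both. Unlike in Csf2, the arrays with HA alone were the highest and those with both agents were between HA and TSG-6. The pooled change of Pf4 was 1.11 ± 0.15 (2.16-fold, adjusted p = 2.74e-05). Cxcl1 (0.83 ± 0.15, adjusted p = 0.0042) and Cxcl16, a chemokine that is also a membrane-bound scavenger receptor (0.91 ± 0.19, adjusted p = 0.0437), passed as well. Their arrays with both agents overlapped those with TSG-6 alone, so both genes are named here after their values were seen. Cxcl1 read -2.32 to -1.45 untreated, -0.49 and -0.74 with HA, -0.53 and -0.89 with TSG-6, and -0.40 and -0.64 with both. Of 21 measured chemokines on the list, which does not hold Pf4, 4 rose and none fell, where 0.0715% of all genes tested rose. A positive change was found in 20 of the 21, against 9213 of all 18194 genes. The median was 0.44 against 0.00 over all genes tested.

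Regulators downstream of NF-kB rose by less. Zc3h12a encodes an enzyme that degrades inflammatory messenger RNAs. It read between -2.44 and -1.69 on the untreated arrays, -1.03 and -1.09 with HA, -0.94 and -1.29 with TSG-6, and -0.83 and -0.87 with both, a pooled change of 0.69 ± 0.13 (adjusted p = 0.00727). Nfkbiz, a nuclear cofactor of NF-kB, rose by 0.70 ± 0.12 (adjusted p = 0.00495), but its values with both agents (-0.50 and -0.33) overlapped those with TSG-6 (-0.49 and -0.95), and 1 of its 3 probe sets had the opposite sign. Of 18 measured NF-kB targets and feedback genes these were the 2 that rose, and none fell, where 0.0715% of all genes tested rose. On this list 15 were positive, against 9213 of all 18194 genes, and the median was 0.19 against 0.00. The next were Ier3 (0.32 ± 0.11, adjusted p = 0.711) and Tnip1 (0.36 ± 0.13, adjusted p = 0.736), which did not pass.

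The remaining rises share no list. Lcp2, the adaptor SLP-76 of immune receptor signalling, read 1.62, 1.90, 2.06, 1.14 and 0.94 untreated, 3.25 and 2.89 with HA, 2.90 and 1.94 with TSG-6, and 3.19 and 3.15 with both. The arrays with HA were close together, and those without were spread. Its pooled change was 1.21 ± 0.19 (adjusted p = 0.000438). The gene 1110008P14Rik, whose product has no settled role, changed by 0.62 ± 0.11 (adjusted p = 0.00647). Btnl9, a butyrophilin-like membrane protein, rose by 0.51 ± 0.11 (adjusted p = 0.0437), with its second probe set at -0.17, and the predicted gene Gm19345 rose by 0.45 ± 0.09 (adjusted p = 0.0217). For Btnl9 and Gm19345 the values with HA were 0.15 to 0.52 and 0.21 to 0.64, above all other arrays. With TSG-6 alone Btnl9 read -0.09 and -0.32 and Gm19345 -0.17 and 0.05, close to the untreated arrays (-0.23 to 0.03 and -0.23 to -0.01).

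Among the falls, Tm6sf1, a multi-pass membrane protein, had the smallest p. It read 3.61, 3.61, 4.01, 4.26 and 4.05 untreated, 3.18 and 2.77 with HA, 3.11 and 3.42 with TSG-6, and 2.46 and 2.44 with both. The cultures with both agents were lowest and the untreated highest, with no overlap between either of them and the others. The pooled change of Tm6sf1 was -0.88 ± 0.10 (adjusted p = 2.45e-06). Sstr2, a receptor of the hormone somatostatin, read 2.76 to 3.01 untreated, 1.94 and 1.99 with HA, 1.70 and 1.82 with TSG-6, and 1.60 and 1.47 with both, a pooled change of -0.62 ± 0.12 (adjusted p = 0.00743).

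Cldn5, the claudin of endothelial tight junctions, read 3.75, 3.61, 3.52, 3.21 and 3.33 untreated, 2.77 and 1.72 with HA, 2.47 and 2.39 with TSG-6, and 1.99 and 1.70 with both. All treated arrays were below all untreated ones, and the arrays with HA differed among themselves by about as much as the pooled change of -0.97 ± 0.20 (adjusted p = 0.0219). Clec1a, a lectin receptor found on endothelial and dendritic cells, read 1.93 to 2.50 untreated, 1.56 and 1.06 with HA, 1.35 and 1.74 with TSG-6, and 1.30 and 1.01 with both, a change of -0.75 ± 0.15 (adjusted p = 0.0166). In these bulk samples, fewer cells of a type and less RNA per cell cannot be told apart. Cldn5 was the only 1 of 13 measured blood endothelial markers past the threshold, where 0.0275% of all genes tested fell. The other 12 did not pass, 12 of the 13 were negative, and the median was -0.24. Over all 18194 genes, 9213 were positive and the median was 0.00. The mean centred level of the 13 markers was 3.58 to 3.89 on the untreated arrays, 3.43 to 3.64 with TSG-6, 3.28 to 3.55 with HA and 3.24 to 3.57 with both, against -1.27 to 0.26 on the knockout-labelled arrays. All wild-type cultures were thus far above the knockout-labelled ones in these markers. The 5 measured lymphatic endothelial markers were all negative (median -0.21), none passed, and the smallest p was that of Mmrn1 (-0.44 ± 0.19, adjusted p = 0.792). Their part in the falls of Cldn5 and Clec1a was not tested.

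Lhx6, a LIM homeobox transcription factor, had a pooled change of -0.83 ± 0.17 (adjusted p = 0.0379). Its arrays in untreated cultures read 3.65, 3.40, 3.75, 3.15 and 3.07 and overlapped with the first HA array at 3.12. The second HA array was at 2.06, and the arrays with both agents at 2.88 and 2.12, against 3.52 and 3.17 with TSG-6. Like Cxcl1, Cxcl16 and Nfkbiz, it is named after its values were seen. Of 206 genes that were lower with HA in both strata, most did not pass. Among these the 6 of smallest p were the orphan receptor Gprc5b (-0.45 ± 0.10, adjusted p = 0.0727), the cohesin acetyltransferase Esco2 (-0.80 ± 0.18, adjusted p = 0.0845), the tetraspanin Tspan6 (-0.34 ± 0.08, adjusted p = 0.0865), the mitotic kinase activator Bora (-0.59 ± 0.15, adjusted p = 0.264), the thrombin receptor F2rl3 (-0.59 ± 0.16, adjusted p = 0.271) and Fam53b (-0.47 ± 0.12, adjusted p = 0.271).

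The arrays differed in ways that the labels do not name, and these move with HA in part. The control probe set for 18S ribosomal RNA read 4.11 on the second HA array and 4.28 on the second array with both agents. It read 1.77 on the fifth untreated array, 0.57 on the second TSG-6 array and below 0 on the other 7. The wild-type arrays also fell into 2 culture sets, found from 33 of 43 probe sets with an empty gap: set a held untreated replicates 1 to 3 and the first replicate of each treatment, and set b the rest. The 3 arrays with a high 18S signal were all in set b. Within set a (2 arrays with HA against 4) the pooled change was 1.72 ± 0.29 for Csf2, 1.65 ± 0.36 for Cxcl2, 1.06 ± 0.20 for Pf4, -0.60 ± 0.12 for Tm6sf1 and -0.54 ± 0.19 for Lhx6. Within set b (2 against 3) it was 2.56 ± 0.30 for Csf2, 1.67 ± 0.37 for Cxcl2, 1.16 ± 0.21 for Pf4, -1.21 ± 0.12 for Tm6sf1 and -1.05 ± 0.20 for Lhx6. Set a alone called 2 genes, 1 of them among the 18, and set b alone called 71, with 14 of the 18. The sets are parts of the arrays on which the 18 were called, so their signs within a set are not independent of that call. The difference between the sets passed for none of the 18, with the smallest adjusted p at 0.488 (Tm6sf1).

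Without the arrays of high 18S signal, 8 genes passed, among them 4 of the 18, namely Csf2 (adjusted p = 0.00758), Tm6sf1 (adjusted p = 0.028), Cxcl2 and Pf4 (adjusted p = 0.0384 for each). Of the arrays with HA, only the first with HA alone and the first with both agents remained, both in set a. Those without HA came from both sets, so HA and culture set are in part confounded in that fit. The changes of Cldn5 and Lhx6 were then -0.61 and -0.41, smaller by more than 1.5 times. With the 18S signal as a covariate 20 genes passed, with the culture set as a block 38 passed, including all 18, and with cyclic loess normalization 20 rose and 1 fell (Tm6sf1). Leaving out the second HA array left 5 genes, leaving out the first left 10, and a fit on the 11 arrays alone, which cannot borrow the spread of the other groups, left 0 (1361 at an unadjusted p under 0.05). The fit on the 11 arrays alone still called 9 genes for HA without TSG-6, and the reason for its count of 0 was not tested. The part of the 18S signal and of the culture sets in the changes above was not tested beyond these values.

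**Figure D2:**
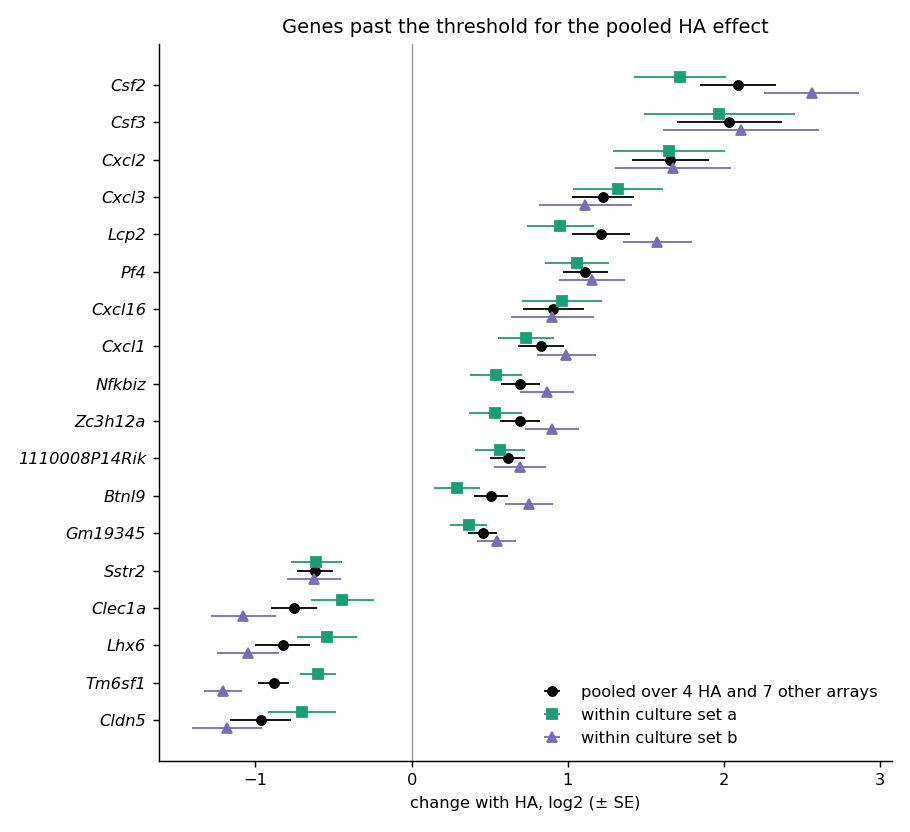
Log2 change with HA (± SE) of the 18 genes past the threshold, for all 11 arrays (black) and within culture sets a (green squares) and b (purple triangles). Csf2 was at 1.72 in set a and 2.56 in set b, and Tm6sf1 at -0.60 and -1.21.

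**Figure D3:**
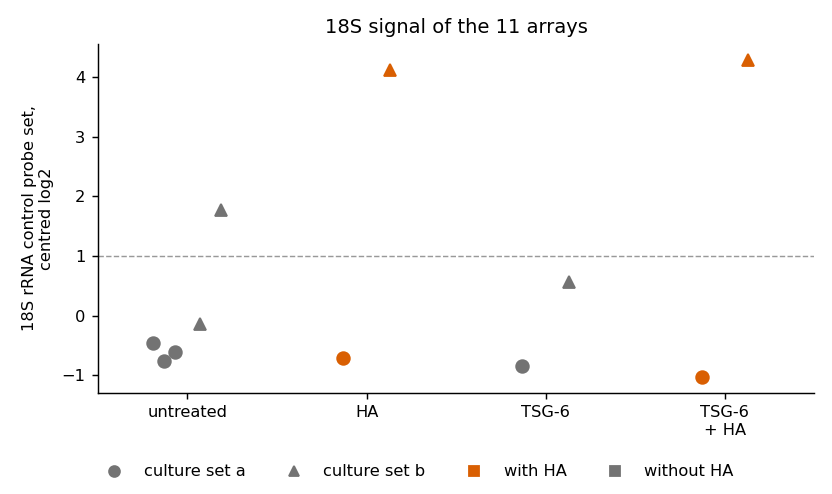
Centred log2 signal of the 18S ribosomal RNA control probe set on the 11 arrays, with the limit of 1 used for a high signal as a dashed line. The second array of the HA group (4.11) and of the group with both agents (4.28) stand highest.

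The pooled effect averages HA given alone and HA given with TSG-6, and the components were unequal in size. HA alone against untreated cultures (2 arrays against 5) changed 24 genes (0.132% of those tested), 17 higher and 7 lower, among them 15 of the 18. Csf2 rose by 2.82 ± 0.26 (7.08-fold, adjusted p = 7.76e-09), Csf3 by 2.81 ± 0.38 and Cxcl2 by 2.37 ± 0.18 (5.16-fold, adjusted p = 2.18e-10). The largest falls were in Cldn5 (-1.24 ± 0.25), Clec1a (-1.01 ± 0.19) and Sprr1a, a small proline-rich protein (-0.98 ± 0.18, adjusted p = 0.0043). Of the 9 genes outside the 18, another 4 are named after their values were seen. Arg2, the mitochondrial arginase, rose by 1.74 ± 0.33 (adjusted p = 0.00623). The antimicrobial peptide Camp rose by 1.06 ± 0.13 (adjusted p = 2.22e-06), the potassium channel Kcnq5 by 1.11 ± 0.18 and the mitochondrial superoxide dismutase Sod2 by 0.96 ± 0.18.

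HA added to TSG-6 (2 arrays against 2) changed 0 genes in limma (456 at an unadjusted p under 0.05). Without the first array of the combination, the same comparison gave 26 genes, with 13 in each direction. The combination was then a single array, the one with an 18S signal of 4.28, and was assumed to vary like the other groups. In the full comparison of 2 arrays against 2, Csf2 changed by 1.04 ± 0.31 and Csf3 by 0.93 ± 0.45. There Cxcl2 changed by 0.64 ± 0.22, Pf4 by 0.51 ± 0.19 and Cxcl1 by 0.18 ± 0.18. For others the components were close: Tm6sf1 changed by -0.93 ± 0.13 without TSG-6 and -0.82 ± 0.16 with it (adjusted p = 0.232 for the latter), Lhx6 by -0.81 and -0.85, Btnl9 by 0.49 and 0.54, and Gm19345 by 0.40 and 0.53. The difference between the components passed for 1 gene (0.0055%), Cxcl2, whose change was lower by -1.73 ± 0.29 in the presence of TSG-6 (adjusted p = 0.0147). For Csf2 the difference was -1.79 ± 0.40 (adjusted p = 0.366) and for Csf3 -1.88 ± 0.59, and neither passed. This call for Cxcl2 rests on single arrays: without the first or the second HA array, the first TSG-6 array or the second array with both agents, 0 genes passed in limma (216 to 454 at an unadjusted p under 0.05).

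**Figure D4:**
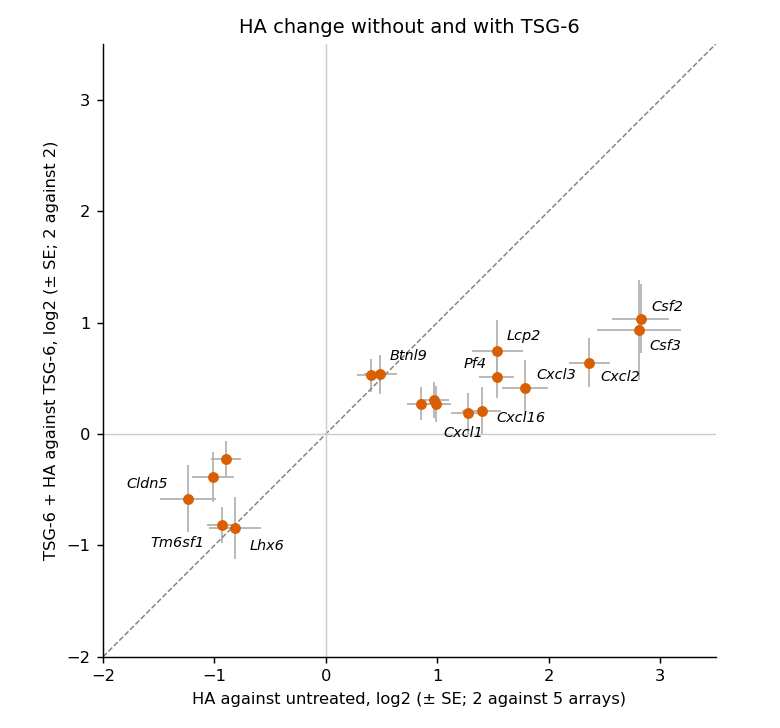
Log2 change (± SE) of the 18 genes under HA alone against untreated cultures (horizontal) and under TSG-6 with HA against TSG-6 (vertical), with the line of equal change dashed. Csf2, Csf3 and Cxcl2 lie far below the line, at 2.82, 2.81 and 2.37 without TSG-6 and 1.04, 0.93 and 0.64 with it, and Lhx6 and Tm6sf1 lie near it.

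The HA and TSG-6 effects were estimated in the same 11 arrays and share the untreated and combined cultures. In the same fit, TSG-6 changed Csf2 by 1.36 ± 0.24, Csf3 by 2.08 ± 0.33, Cxcl2 by 1.35 ± 0.25, Cxcl3 by 1.16 ± 0.20 and Sstr2 by -0.83 ± 0.12. It changed Pf4 by 0.19 ± 0.15, Lhx6 by -0.08 ± 0.17, Btnl9 by -0.05 ± 0.11 and Gm19345 by 0.09 ± 0.09, none of which passed. TSG-6 changed 11 of the 18 genes in the same direction as HA (0.627% of all genes passed for TSG-6). The difference between the agents passed for 2 genes (0.011%), both lower under HA: Olfm2, an olfactomedin-family secreted protein (-2.08 ± 0.27, adjusted p = 7.86e-05), and the matrix metalloproteinase Mmp10 (-1.58 ± 0.26, adjusted p = 0.00609). Olfm2 read -0.37 and 0.10 with HA, -0.17 to 0.48 untreated, 2.14 and 1.74 with TSG-6, and 1.60 and 1.79 with both. It was thus high on every array with TSG-6 and at the untreated level with HA alone. Mmp10 read 0.11 and -0.12 with HA, -0.32 to 0.06 untreated, 1.40 and 1.75 with TSG-6 and 0.94 and 0.68 with both. For Pf4, which HA raised more, the difference of 0.92 ± 0.23 did not pass (adjusted p = 0.291).

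Lipopolysaccharide (LPS, 200 ng/ml) and TNFa (5 ng/ml) are the inflammatory agents given to other wild-type cultures, 2 arrays each, against the same untreated arrays. LPS changed 16 of the 18 genes in the direction of HA (1.1% of all genes passed for LPS), and 16 were larger in size than under HA alone, which is the matching contrast against untreated cultures. The LPS changes were 4.08 ± 0.31 for Csf2, 3.98 ± 0.43 for Csf3, 4.11 ± 0.32 for Cxcl2, 2.83 ± 0.19 for Pf4, 1.91 ± 0.24 for Lcp2, -2.33 ± 0.25 for Cldn5 and -1.24 ± 0.13 for Tm6sf1. Those that LPS did not change were Btnl9 (0.06 ± 0.14, adjusted p = 1) and Gm19345 (0.28 ± 0.12, adjusted p = 0.527). TNFa changed 10 of the 18 in the direction of HA (2.59% of all genes), with 3.35 for Cxcl2, 2.34 for Csf2, 1.92 for Pf4 and -1.70 for Tm6sf1. It left Nfkbiz at 0.00 (adjusted p = 1) and Csf3 short of the threshold (1.46, adjusted p = 0.0596). All these comparisons share the untreated arrays, so their directions are not independent.

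**Figure D5:**
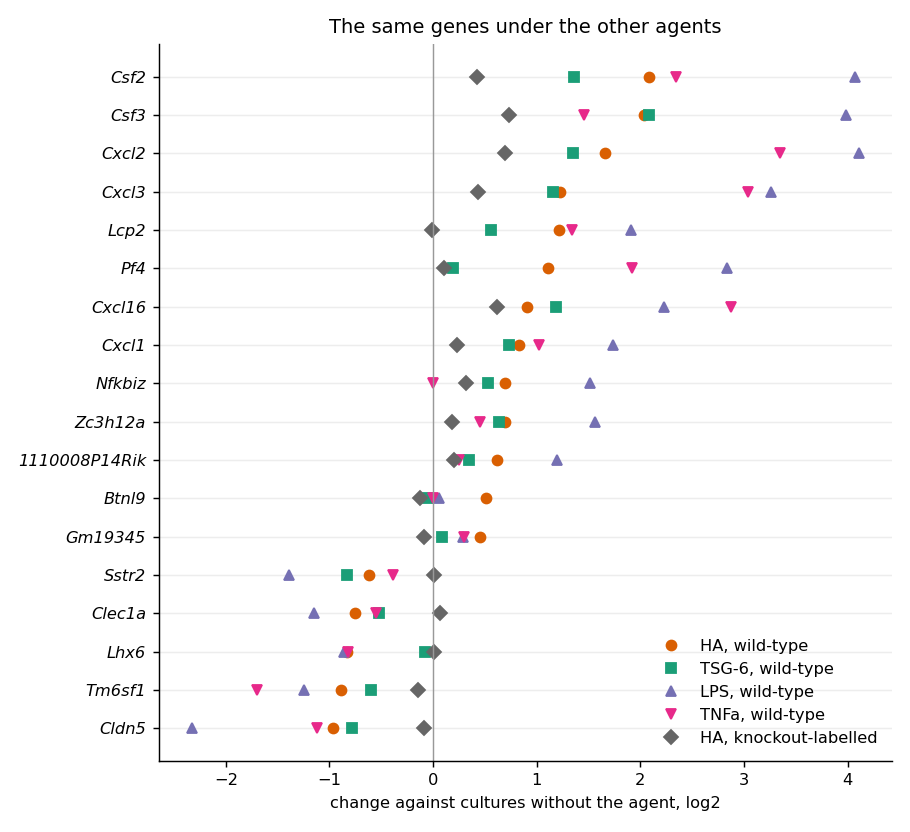
Log2 change of the 18 genes under HA, TSG-6, LPS and TNFa in wild-type cultures and under HA in knockout-labelled cultures. The HA and TSG-6 changes are each pooled over the other agent, while LPS and TNFa are set against untreated cultures. LPS (purple triangles) reached 4.08 for Csf2, against 2.09 for pooled HA (orange circles) and 2.82 for HA alone (not drawn), and the knockout-labelled HA changes (grey diamonds) lie between -0.15 and 0.74.

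The same 2 by 2 design was present in the cultures labelled as deficient in Tnfaip6, with 8 untreated, 3 with TSG-6, 4 with HA and 4 with both, which share no array with the wild-type ones. The probe set of Tnfaip6 does not check this label: it read -0.55 to -0.14 in untreated wild-type cultures and had a mean of -0.11 ± 0.23 (SD, n = 8) in untreated knockout-labelled cultures. In wild-type cultures it did not pass for HA (0.08 ± 0.17, adjusted p = 0.966). In the knockout-labelled cultures HA changed 20 genes (0.11% of those tested). None was among the 18, and at that share such a count says little about them. Of the 18, 12 had the same sign as in wild-type, a count that was not tested. Csf2 changed by 0.42 ± 0.18 there (adjusted p = 0.496), Pf4 by 0.11 ± 0.11, Lcp2 by -0.01 ± 0.14 and Tm6sf1 by -0.15 ± 0.07. The difference between the genotypes passed for these 4 genes and no other (0.022%). The knockout-labelled change minus the wild-type change was -1.67 ± 0.30 for Csf2 (adjusted p = 0.0185), -1.22 ± 0.23 for Lcp2 (adjusted p = 0.0271), -1.01 ± 0.18 for Pf4 (adjusted p = 0.0185) and 0.74 ± 0.13 for Tm6sf1 (adjusted p = 0.0185). For Csf3 (-1.30 ± 0.42) and Cxcl2 (-0.96 ± 0.31) it did not pass.

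The genotypes started from unequal levels of these genes. In untreated cultures the mean of Pf4 was 2.12 ± 0.21 for the wild-type group (SD, n = 5) and -0.45 ± 0.17 for the knockout-labelled group (SD, n = 8), that of Lcp2 was 1.53 ± 0.48 and -0.33 ± 0.24, and that of Tm6sf1 was 3.91 ± 0.28 and -0.07 ± 0.06. Cxcl2 was the other way round, at -3.38 ± 0.07 in wild-type and -0.56 ± 0.26 in knockout-labelled cultures. Genotype and culture of origin cannot be told apart. The call count of this comparison was 0 in limma without the second wild-type HA array (368 at an unadjusted p under 0.05) or the second wild-type TSG-6 array (510), and 1 without the first HA array.

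The genes that make, bind and break down HA itself gave no call. Of 30 measured members 0 passed, where 0.0989% of all genes tested passed, so the count says little about this list. The median change was -0.04 and the smallest adjusted p was 0.788. The synthases changed by 0.12 ± 0.15 (Has1), -0.07 ± 0.22 (Has2) and -0.07 ± 0.16 (Has3), and the hyaluronidases by -0.05 ± 0.08 (Hyal2) and 0.00 ± 0.11 (Hyal3). The HA-degrading Cemip (-0.42 ± 0.35) and Cemip2 (-0.13 ± 0.14) did not pass. Among receptors, Cd44 read -0.90, -0.22, -0.15, 0.17 and 0.32 untreated and -0.04 and 0.21 with HA, which is within the untreated range, and its pooled change was 0.17 ± 0.22. Tlr2, an innate receptor reported to sense HA fragments, changed by 0.42 ± 0.16 and Tlr4 by -0.15 ± 0.31. Stab2, the endothelial scavenger receptor of HA, had the lowest value (-0.75 ± 0.34), and did not pass. Within set a it read 3.64 to 3.83 untreated, 2.83 with HA, 2.91 with TSG-6 and 2.70 with both, and within set b 2.15 to 2.54, 1.39, 1.57 and 1.21. The arrays with HA were thus lower than their counterparts without it in each set, and the sets lay far apart. Lyve1, the lymphatic HA receptor, was at -0.34 ± 0.22, Hmmr at -0.23 ± 0.25, Stab1 at -0.16 ± 0.22 and Layn at 0.08 ± 0.14.

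The HA-binding matrix proteins of that list were Vcan (0.15 ± 0.18), Acan (-0.09 ± 0.12), Hapln1 (-0.15 ± 0.31), Hapln3 (0.05 ± 0.12) and Ptx3 (0.06 ± 0.24). Those whose heavy chains TSG-6 can transfer onto HA were Itih1 (0.15 ± 0.11), Itih2 (0.04 ± 0.22), Itih3 (-0.02 ± 0.12) and Itih5 (0.48 ± 0.46). The enzymes that supply sugar precursors, Ugdh (-0.08 ± 0.12), Ugp2 (-0.09 ± 0.12) and Gfpt1 (0.01 ± 0.11), and the LPS co-receptors Cd14 (0.21 ± 0.17) and Ly96 (-0.24 ± 0.19), complete it. The ± values are standard errors and do not bound the changes, and at this sample size the results do not show that the levels were equal.

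Other groups of genes gave no call for HA. As 0.0989% of all genes tested passed, a count of 0 in lists of this size says little about them. Of 23 cell cycle and mitosis genes 0 passed and 22 were negative, with a median of -0.21. The motor protein Kif11 had the smallest p (-0.51 ± 0.15, adjusted p = 0.422), with 1.71 to 2.35 untreated, 1.55 and 1.44 with TSG-6 and 1.28 to 1.35 on the 4 arrays with HA, the lowest of the 11. Mki67, the proliferation marker, changed by -0.57 ± 0.30, and its arrays overlapped. Of 24 collagens and other matrix genes 0 passed and 3 were positive (median -0.10), led by Tnc, a matrix protein of inflamed joints (-0.76 ± 0.21, adjusted p = 0.317). Of 15 matrix metalloproteinases, ADAMTS proteases and inhibitors 0 passed (median -0.05), of 25 interferon-stimulated genes 0 (median 0.11) and of 20 immediate early genes 0 (median -0.03). The 14 macrophage markers (median 0.08) and the 7 neutrophil markers (median 0.06) gave no call either, and those of T cells, B cells and mast cells had medians between 0.06 and 0.11.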

How the data were processed

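The authors deposited log2 expression values of 45101 probe sets on 42 Affymetrix arrays, and RMA is the tool that the submitters' processing notes name, with its version not given in the sources used here. The median of every probe set lies within 1e-05 of 0, and base 2 was inferred from the largest range (9.81). Probe sets with 1 gene in the platform annotation (34958) were kept, and those with several (932) or none (9211) were left out. For each gene the probe set of largest SD was taken, avoiding those that correlated above 0.7 with the 18S probe set where another existed, which gave 18194 genes. No 2 arrays correlated above 0.961, so none was a copy.

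All 42 arrays were fitted together in limma 3.58.1 (R 4.3.3) with, in each genotype, terms for HA, TSG-6, TNFa and LPS (32 residual degrees of freedom), or with 12 group means for HA alone, HA on top of TSG-6 and their difference. Benjamini-Hochberg adjustment ran over all genes of a comparison, with a threshold of 0.05. Data were also simulated for the pooled HA effect with all 18194 genes. Changes were planted in 67 genes at 1.5-fold, 67 at 2-fold and 66 at 4-fold. Of these, 77.6%, 89.6% and 100% were recovered, with 13 false calls. The real comparison called 18 genes, and the adjusted p depends on how many genes change. The simulated shares are therefore not error rates of the real comparison. How well the simulation matches the culture sets and the 18S signal was not tested.

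The members and the gene lists were chosen with earlier results of these data known. Of 511 genes on 20 pathway and 15 marker lists, 477 were measured, and the others were not analysed here. Genes named are, for the pooled effect, the 15 largest rises and falls past the threshold that separate in both strata, filled to 10 a direction by the smallest p among genes that separate. For the other tests they are the 3 largest each way, for each list the 4 of smallest p, all HA genes and Tnfaip6. Probe sets were also averaged, arrays renormalized by cyclic loess and by quantiles, blocks, covariates and left-out arrays tried, and genes filtered to the upper range by SD.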

Additional observations from a re-analysis of the deposited data

Results flagged for a closer look

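Among the 5 untreated wild-type arrays, single arrays stood far from the others for 5 of 57 genes examined; chance gives about 1 in 20. Pf4 was low on untreated array 1 (1.76, the others 2.15 to 2.27), and Tspan6 was low there as well (0.30, the others 0.54 to 0.59). On untreated array 3, 1110008P14Rik was high (-1.37, the others -1.85 to -1.76), Clec1a was low (1.93, the others 2.36 to 2.50) and Fam53b was high (1.07, the others 0.56 to 0.66).

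The pooled HA effect differed between the genotypes, as knockout-labelled minus wild-type, for Csf2 (-1.67), Lcp2 (-1.22), Pf4 (-1.01) and Tm6sf1 (0.74), each with a tested difference. The HA change of Cxcl2 differed between cultures with and without TSG-6 by -1.73, also by a test of the difference itself.

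The 18S ribosomal RNA control probe set served in the choice of probe sets and in the 18S checks above. It read 4.11 on the second HA array and 4.28 on the second array with TSG-6 and HA. Both values were above those of the untreated wild-type arrays (-0.76 to 1.77).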

How the results depend on the processing

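The pooled HA effect had 18 genes (13 higher, 5 lower). Its count was 1 with quantile normalization (Cxcl1), 0 with only the 11 arrays, 38 with the culture set as a block and 8 without the arrays of high 18S signal. Among alternatives chosen after seeing the data, it was 3 with the set as a block and those arrays left out, 2 within set a and 71 within set b. It ranged from 5 to 22 with 1 array left out (5 without the second HA array, 10 without the first). With cyclic loess it was 21, with the mean of a gene's probe sets 15 and in the upper range by SD 16. HA without TSG-6 had 24 genes, 4 with quantiles, 9 with only the 2 by 2 arrays, 49 with the replicate number as a block, 68 with the culture set as a block, and 18 to 29 with 1 array left out. HA on top of TSG-6 had 0 genes and 0 to 26 with 1 array left out (26 without the first combined array). The difference between these components had 1 gene, 2 with cyclic loess, 0 with quantiles, 0 with only the 2 by 2 arrays, 7 with the culture set as a block, 0 without arrays of high 18S signal, 2 with both of these, and 0 to 3 with 1 array left out. HA minus TSG-6 had 2 genes, 5 with cyclic loess, 0 with quantiles, 4 with only the 2 by 2 arrays, 8 with the replicate block, 19 with the set block, 4 without arrays of high 18S signal, 7 with both, and 1 to 2 with 1 array left out. The genotype difference had 4 genes, 0 with quantiles, with only the 2 by 2 arrays and with the replicate block, 1 without arrays of high 18S signal, 0 with the set block and those arrays left out, and 0 to 5 with 1 array left out. The cause of these shifts was not tested, save that fits on fewer arrays have fewer degrees of freedom.

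Replicate numbers were shared between groups in the labels, and same-numbered samples correlated between -0.59 and 0.681 in their deviations. Same-numbered treated arrays, which belong to the same culture set, correlated between 0.547 and 0.681, and the negative values came from untreated replicate 2. The correlation was not above 0.1 in every pair, so the numbers were not taken to pair the samples. Arrays of the same culture set correlated between 0.145 and 0.681, and arrays of different sets between -0.681 and -0.145. In a group of 2 arrays the deviations from the mean are mirror images, so the second range repeats the first with its sign changed. The sets were found from these same arrays, so neither range is separate support for them. The replicate block gave 15 genes for the pooled effect, 10 of them among the 18. Across 57 named genes and 26 settings, no pooled change reversed its sign where the main or the alternative value passed the threshold. Changes of sign that passed in neither were not counted as reversals. Of the values of the 18 called genes, 309 were past the threshold and 157 (33.7%) were not, and values of the other genes passed it 18 times. With 2 arrays in each treated group, the precision of the pooled effect rests on the spread in the other groups, and small changes can be missed.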

Other observations

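Arg2, which did not pass for the pooled HA effect (1.21 ± 0.29, adjusted p = 0.106), separated all 10 treated from all 5 untreated wild-type arrays. It read 0.73 to 2.22 (median 1.25) on the treated arrays and -0.89 to -0.55 (median -0.56) on the untreated ones, and its second probe set read 0.78 to 2.00 (median 1.11) and -0.60 to -0.32 (median -0.47). In HA alone, Slc15a3, a lysosomal peptide transporter, rose by 0.95 ± 0.20 (adjusted p = 0.0379) and the iron transporter Slc11a2 by 0.70 ± 0.14 (adjusted p = 0.0102), while the kinase Camk4 fell, with a change of -0.83 ± 0.16 (adjusted p = 0.0108). Pdpn, on the list of synovial fibroblast markers, read 0.83 and 1.06 on the HA arrays with a high 18S signal and -0.77 to 0.12 on the other 9 arrays. It does not stand for that list: of its 16 measured markers 5 had a positive pooled change, the median was -0.05 and 0 passed.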
